A study of Homo sapiens with 7 samples.

Results

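Small nuclear RNAs (snRNAs), small nucleolar RNAs (snoRNAs) and related short RNAs were examined in UM-UC-3, an established human bladder cancer line. Members were the rows whose symbol begins with RNU, SNORA, SNORD, SCARNA, RNY or RN7S. These were 214 of the 13872 rows of the expression table. They comprised 111 SNORD, 51 SNORA, 27 RNU, 12 SCARNA, 9 RN7SL, 3 RN7SK and 1 RNY row, under 196 symbols. Many of these rows carried the same 7 values as another row, so the 214 rows held 176 distinct sets of values, and each set is counted once below.

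The series compared 3 ALDH-high clones (clones 1, 6 and 10), 3 ALDH-low clones (clones 1, 3 and 8) and 1 wild-type UM-UC-3 library. Clones were sorted with the ALDEFLUOR assay, which makes cells fluoresce according to aldehyde dehydrogenase activity. The submitters describe the ALDH-high clones as stem-like and the ALDH-low clones as not stem-like. All libraries were made from total RNA of 1 cell line, each clone gave 1 library, and the wild type had no replicate, so p values measure the spread between clones of that line. Values are in CPM (counts scaled by library size), and the smallest value above 0 was 0.04 CPM in every library. Every column name ends in the name of CAGEr, software for tags from the 5′ ends of capped transcripts. The sources used here do not say whether the libraries were of that kind or how reads were assigned to these rows, and CPM values are not corrected for length. A row that equals or nearly equals its host row is therefore given as the value of that row, not as a level of the mature small RNA.

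Of 21 urothelial markers looked up by symbol, 5 had a row in the expression table (KRT7, KRT8, KRT18, PPARG and FOXA1). Their summed level was 499.72 to 739.99 CPM in ALDH-high clones, 243.28 to 519.72 CPM in ALDH-low clones and 755.24 CPM in the wild type. KRT18 and KRT8 carried most of this sum, while KRT7 was at 1.99 CPM in ALDH-high and 5.30 CPM in ALDH-low clones on average, and 2 of the 4 tested markers were higher in ALDH-high clones (median -0.12). Of 8 fibroblast markers only ACTA2 had a row, at no more than 0.60 CPM in the clones and 2.32 CPM in the wild type. Of 6 immune markers only CD68 had a row, a lysosomal protein that is not restricted to immune cells. It was at 64.36 to 130.8 CPM in the clones and 139.04 CPM in the wild type. Of 4 endothelial markers 0 had a row. Whether these levels bear on the small RNA rows was not tested.

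Box C/D snoRNAs (SNORD) guide methylation of ribosomal RNA by fibrillarin, and box H/ACA snoRNAs (SNORA) guide pseudouridylation by dyskerin. SCARNAs do the same for spliceosomal RNAs in Cajal bodies. Most human snoRNAs lie in introns of other genes and are trimmed from the spliced intron, while the spliceosomal U RNAs (RNU) have their own promoters. RN7SK restrains the transcription elongation factor P-TEFb, RN7SL is the RNA of the signal recognition particle, and Y RNAs bind the Ro protein.

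Sequences below are GENCODE release 29 transcripts, read by gene identifier and written 5′ to 3′. SNORD15A and SNORD101 are shown because they lie near the start of their host genes and follow the host rows, SNORD100 because it lies farther into the host of SNORD101, and SNORD48 and SNORA52 because they have low p values between the clone groups. Capitals mark TGATGA within the first 20 bases (box C) and the last CTGA within the final 15 bases (box D) of SNORD sequences, and ACA 3 bases from the 3′ end of the SNORA sequence.
SNORD15A: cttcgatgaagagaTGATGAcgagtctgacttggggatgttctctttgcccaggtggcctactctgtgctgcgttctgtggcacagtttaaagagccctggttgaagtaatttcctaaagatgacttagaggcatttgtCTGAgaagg
SNORD101: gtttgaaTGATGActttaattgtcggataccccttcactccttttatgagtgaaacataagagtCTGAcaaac
SNORD100: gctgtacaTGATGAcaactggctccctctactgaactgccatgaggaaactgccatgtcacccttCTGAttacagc
SNORD48: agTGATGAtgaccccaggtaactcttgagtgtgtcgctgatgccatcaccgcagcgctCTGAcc
SNORA52: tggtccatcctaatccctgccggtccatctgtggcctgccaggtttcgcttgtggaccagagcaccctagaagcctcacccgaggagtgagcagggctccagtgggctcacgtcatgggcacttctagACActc

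Among the 94 SNORD sequences that could be read, 58 held TGATGA and 91 held CTGA in these windows. Of the 49 SNORA sequences, 40 ended in ACA followed by 3 bases. The transcript strand alone was searched. Over all 206694 GENCODE 29 transcripts, the same searches matched 0.575%, 7.19% and 2.37% of transcripts. A match describes the letters in the window and nothing more.

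Rows that repeat another row were common among the members. All 7 values were shared with another row in 91 of the 214 rows (42.52%), against 7.33% of the rows of the whole table. In 27 sets (62 rows, of which 34 were member rows) the shared values included a gene outside the members. In 17 sets (39 rows) the rows were different members, and in 9 sets (18 rows) they were 1 symbol under 2 identifiers. SNORD101 had the values of RPS12, the ribosomal protein gene that contains it, with 3134.51, 1648.34 and 2209.40 CPM in the ALDH-high clones (in the order 1, 6 and 10, here and below), 2434.68, 2476.34 and 2208.32 CPM in the ALDH-low clones (in the order 1, 3 and 8), and 3818.07 CPM in the wild type. The groups overlapped, and the wild type was the highest library. SNORA21 equalled RPL23, a ribosomal protein gene, at a mean of 693.08 CPM over the 7 libraries. SNORD49A and SNORD49B both equalled the noncoding C17orf76-AS1 at a mean of 715.28 CPM. SNORD12C equalled ZFAS1 at 382.10 CPM, SNORD1C equalled SNHG16 at 137.51 CPM, and SNORD25, SNORD26, SNORD27 and SNORD28 all equalled SNHG1 at 43.16 CPM. These 3 outside genes are noncoding snoRNA hosts.

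Other equalities joined rows of different kinds. RNU7-1, the U7 RNA of histone mRNA 3′ end processing, equalled C12orf57 at a mean of 152.40 CPM. SNORA14B equalled TOMM20, a subunit of the mitochondrial import receptor, at 93.16 CPM. RNU4-8P, a U4 pseudogene, equalled ACTR1B, a dynactin subunit, at 13.66 CPM. SNORA24 was listed under 2 identifiers with different values. The copy on chromosome 4 equalled its host SNHG8 at 267.17 CPM, and the copy on chromosome 15 equalled its host PARP16 at 5.99 CPM. In each of these sets the value of the small RNA cannot be told apart from that of the other gene, and the same holds for rows that stayed within a few percent of their host, given below.

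The level of a row relative to its host varied with its place in the host. For 155 rows a gene of the same strand that contains them was itself in the table, and 146 of these rows lay in an intron and 8 overlapped an exon. The remaining one, RNU7-1, had no annotated host start upstream of it. Distance was counted in bases from the nearest upstream start of a host transcript in GENCODE 29, and a set was placed by its nearest member. Only principal transcripts were used where a host had any. Hosts without them were measured from their basic transcripts, or from all transcripts if none was basic. The distances therefore do not all rest on the same rule. Of 30 sets at most 1000 bases from that start, 26 stayed within 5% of the host row in all 7 libraries, and their median was 100% of the host. Of 104 sets farther in, 4 did so, 93 were under 20% of the host, and their median was 1.92%. The limit of 1000 bases was chosen after the values were seen, and these counts are a description without a test. SNORA14B and SNORD1C, both at 999 bases, were at 100% of their hosts, and SNORA9, at 1050 bases in SNHG15, was at 2.39%.

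**Figure D1:**
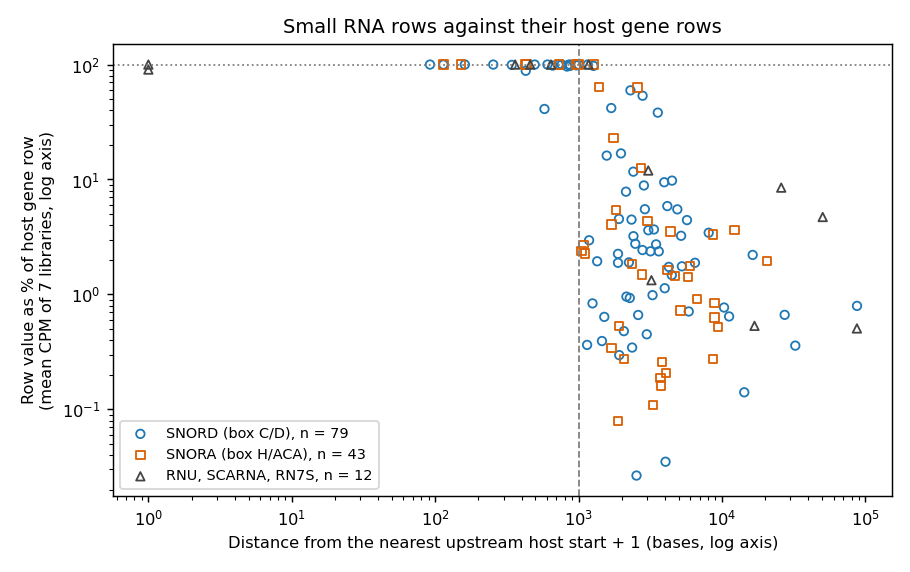
Each point is 1 value set (134 in all), with the distance from the nearest upstream host start plus 1 base on the x axis and the row's mean CPM as a percentage of the host's on the y axis, both logarithmic. The dashed line marks 1000 bases and the dotted line 100%, and most sets left of the dashed line lie on the dotted line while most sets to its right lie between 0.1% and 10%.

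Among the 4 exceptions near a start were SNORD50A and SNORD50B with shared values in SNHG5 (38.0 to 44.1% of the host), RNU2-2 in WDR74 (83.0 to 93.4%) and SNORD95 in GNB2L1 (94.0 to 98.2%). The 4 sets farther in that stayed within 5% of the host lay between 1157 and 1281 bases. They were SNORD42B in RPL23A, SCARNA13 in SNHG10, SNORD84 in DDX39B and SNORA24 in PARP16. No set beyond 1500 bases stayed within 5% of its host, among 37 sets at 1500 to 3000 bases, 33 at 3000 to 6000 bases and 21 farther in.

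Pairs within 1 host differed in the same way. SNORD15A, 848 bases into RPS3 on chromosome 11, was at 1866.34, 1615.51 and 1248.00 CPM in the ALDH-high clones, 1087.96, 730.74 and 865.08 CPM in the ALDH-low clones and 2766.73 CPM in the wild type. Its relative SNORD15B, 4878 bases into the same gene, was at 55.31, 79.66 and 137.04 CPM, then 102.84, 51.22 and 92.64 CPM, and 43.80 CPM in the wild type. SNORD15A was thus highest, and SNORD15B lowest, in the wild type. SNORD15A ranged from 99.2 to 99.6% of RPS3 and SNORD15B from 1.58 to 10.9%.

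In RPS12 on chromosome 6, SNORD101 at 866 bases equalled the host, while SNORD100 and SNORA33, which shared their values, were at a mean of 8.84 CPM. In RPL23A, SNORD42B at 1157 bases was at a mean of 3083 CPM, and SNORD42A and SNORD4B, which shared their values, were at 1.08 CPM. In RABGGTB, a Rab prenylation subunit, SNORD45C at 871 bases was at 114.10 CPM, SNORD45A at 1688 bases at 49.01 CPM and SNORD45B at 3276 bases at 1.15 CPM. Levels of some members also ran together in RPL13A, a host without a near member. SNORD32A, SNORD33 and SNORD34, 2411 to 3350 bases into RPL13A, had means of 85.96, 96.80 and 98.32 CPM, and all were lowest in the wild type and next lowest in ALDH-high clone 1.

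The wild type and ALDH-high clone 1 stood apart from the other 5 libraries in this relation. These 2 libraries were singled out after their values were seen, so the counts that follow are a description without a test. Over the 104 sets beyond 1000 bases, the median share of the host was 1.21, 1.84 and 2.56% in ALDH-high clones 1, 6 and 10, 2.76, 1.80 and 2.47% in ALDH-low clones 1, 3 and 8, and 1.04% in the wild type. The share was lowest of the 7 libraries in the wild type for 47 of these sets and in ALDH-high clone 1 for 39. In CPM, 81 of the 104 sets (77.9%) had their lowest value in 1 of these 2 libraries, against 37% of all rows of the table. Sets near a start went the other way, with 20 of 30 (66.7%) highest in 1 of these 2 libraries, against 36.9% of all rows. The summed level of the near sets was 23068.88 CPM in ALDH-high clone 1 and 26518.12 CPM in the wild type, and 15832.75 to 17075.61 CPM in the other 5. The summed level of the far sets did not set these libraries apart. It was 5537.97 CPM in ALDH-high clone 1, 5808.08 CPM in the wild type and 4485.71 to 5941.49 CPM in the other 5. The median level of the far sets was lowest in these libraries, at 5.07 and 3.66 CPM against 6.42 to 9.80 CPM. The sets share hosts (104 sets in 74 hosts beyond 1000 bases), and their values in 1 library are not independent. The host rows of the far sets were highest in 1 of these 2 libraries for 41 of 74 hosts. The part of the libraries' preparation or quality in this pattern was not tested.

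**Figure D2:**
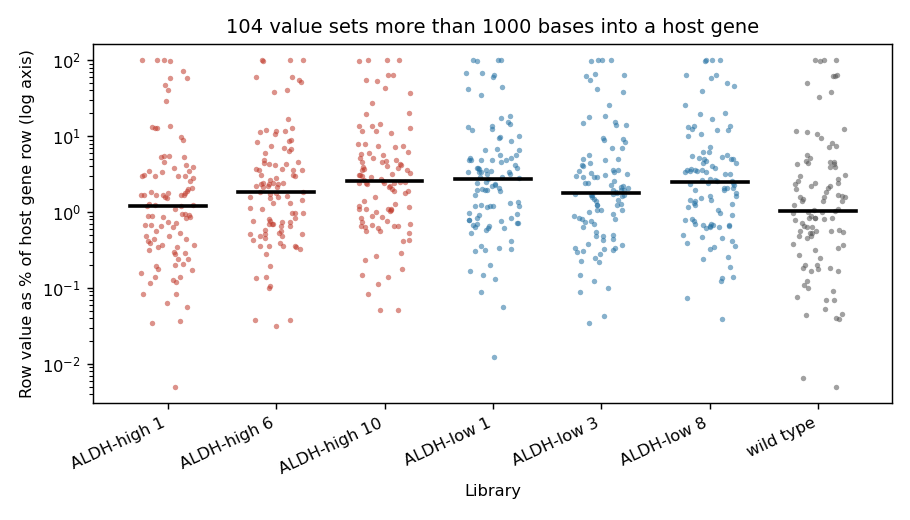
Each point is 1 of 104 value sets lying more than 1000 bases into a host, with its CPM as a percentage of the host's on a logarithmic y axis, by library on the x axis, and the bar is the median. The medians are lowest in the wild type (1.04%) and ALDH-high clone 1 (1.21%), and 2 points are drawn at the lower edge of 0.005%.

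The highest rows were those of SNORD members in genes of the translation machinery, most of them at or near the value of the host row. SNORD54 in RPS20 led with 6323.07, 4539.86 and 5201.13 CPM in the ALDH-high clones, 4645.33, 4522.22 and 4357.57 CPM in the ALDH-low clones and 6888.78 CPM in the wild type. It stayed between 100% and 100.1% of RPS20. SNORD42B, SNORD101, SNORD95, SNORD43 in RPL3 and SNORD15A followed at means of 3083 to 1454 CPM, then SNORD58A in RPL17 at 1033 CPM. SCARNA2 (893.99 CPM), RNU2-2 (811.68 CPM), the SNORD49A set, SNORA21 and SNORD59A in ATP5B (662.38 CPM) completed the first 12. With each set counted once, the members summed to 30812.64, 23470.95 and 24927.06 CPM in the ALDH-high clones, 23862.94, 21882.63 and 23355.74 CPM in the ALDH-low clones and 34558.26 CPM in the wild type. ALDH-high clone 1 and the wild type again had the highest sums, and the other clones of both groups overlapped. Of these sums, the sets near a host start held 23068.88 CPM in ALDH-high clone 1 and 26518.12 CPM in the wild type. The sums are thus in large part values of host rows.

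**Figure D3:**
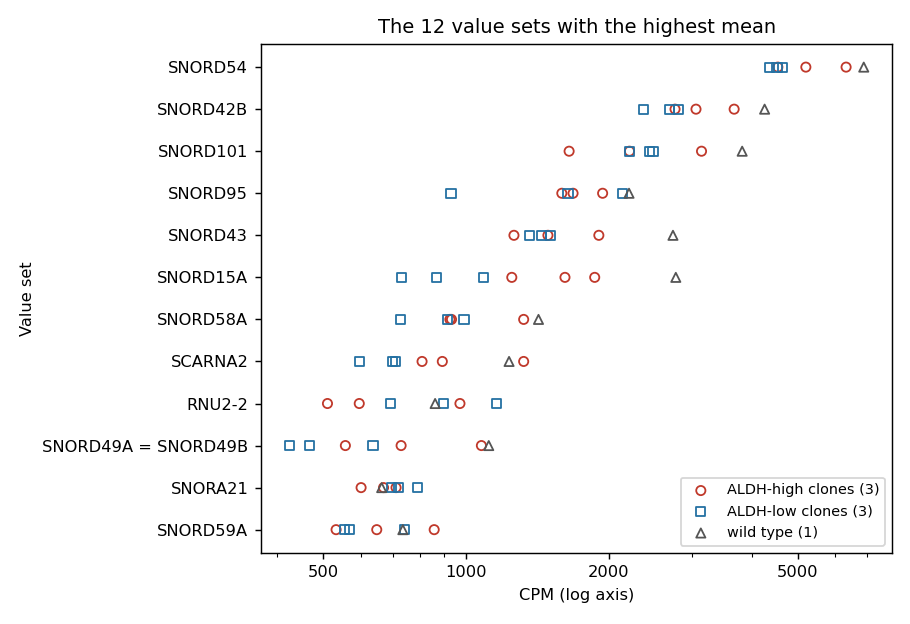
CPM on a logarithmic x axis for the 12 value sets with the highest mean, 1 symbol per library (circles ALDH-high clones, squares ALDH-low clones, triangles wild type). The wild type is the highest library for SNORD54, SNORD42B, SNORD101, SNORD95, SNORD43, SNORD15A, SNORD58A and the SNORD49A set, and the clone groups do not overlap for SNORD15A and SCARNA2.

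The spliceosomal RNAs recognise splice sites and form the catalytic core of the spliceosome. U1 pairs with the 5′ splice site through its 5′ end, and U5 holds the exons through a conserved loop. The U1 sequence is shown because several gene copies are identical, so that a read can come from more than 1 row. Capitals mark ACTTACCTG.
RNU1-2: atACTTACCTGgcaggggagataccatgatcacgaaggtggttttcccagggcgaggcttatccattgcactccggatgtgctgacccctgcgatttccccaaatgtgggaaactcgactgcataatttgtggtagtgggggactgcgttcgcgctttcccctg

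Of 4731 GENCODE 29 transcripts of 100 to 170 bases, 1.01% held ACTTACCTG on the transcript strand. The row named RNU1-7 carries the identifier that GENCODE 29 calls RNU1-27P, on chromosome 14, and its sequence is that of RNU1-2 on chromosome 1 at 164 of 164 positions. In GENCODE 29, 8 genes have this sequence. RNU1-2 was listed at 0 in ALDH-high clone 1, while ALDH-high clones 6 and 10 had 188.75 and 111.04 CPM. In the ALDH-low clones it was at 44.76, 55.51 and 95.48 CPM, and it was at 57.19 CPM in the wild type. RNU1-7 was at 6 CPM in ALDH-high clone 1 and at 0 to 0.04 CPM in the other 6 libraries. ALDH-high clone 1 was thus the single library in which RNU1-7 exceeded RNU1-2, and which of the identical copies the reads came from cannot be told apart.

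RNU2-2, a U2 gene overlapping the first exon of WDR74 on chromosome 11, was at 970.34, 510.12 and 595.20 CPM in the ALDH-high clones, 1160.00, 894.55 and 691.40 CPM in the ALDH-low clones and 860.15 CPM in the wild type, and the groups overlapped. The main U4 rows, RNU4-1 and RNU4-2, were 137 of 141 positions identical. RNU4-2 was at 8.78, 15.92 and 9.88 CPM in the ALDH-high clones, 7.20, 5.66 and 8.08 CPM in the ALDH-low clones and 1.76 CPM in the wild type.

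Most U5 rows were lowest in the wild type, as were many rows of other classes. Of 8 U5 value sets, pseudogenes included, 7 were lower in the wild type than in every clone. RNU5A-1 was at 8.11, 17.61 and 26.76 CPM in the ALDH-high clones, 27.20, 21.45 and 18.00 CPM in the ALDH-low clones and 1.04 CPM in the wild type. RNU5B-1 was at 3.66, 15.35 and 16.92 CPM, then 14.76, 17.32 and 11.52 CPM, and 1.60 CPM in the wild type. In both rows ALDH-high clone 1 was the lowest clone and the wild type was lower still. RNU5D-1 was at 79.59, 62.18 and 90.72 CPM, then 93.80, 66.39 and 60.88 CPM, and 6.31 CPM in the wild type. RNU5E-1 was at 0.94 to 1.80 CPM in the clones and 0.28 CPM in the wild type. RNU5F-1 was the exception, at 23.04 to 70.57 CPM in the clones and 30.85 CPM in the wild type.

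**Figure D4:**
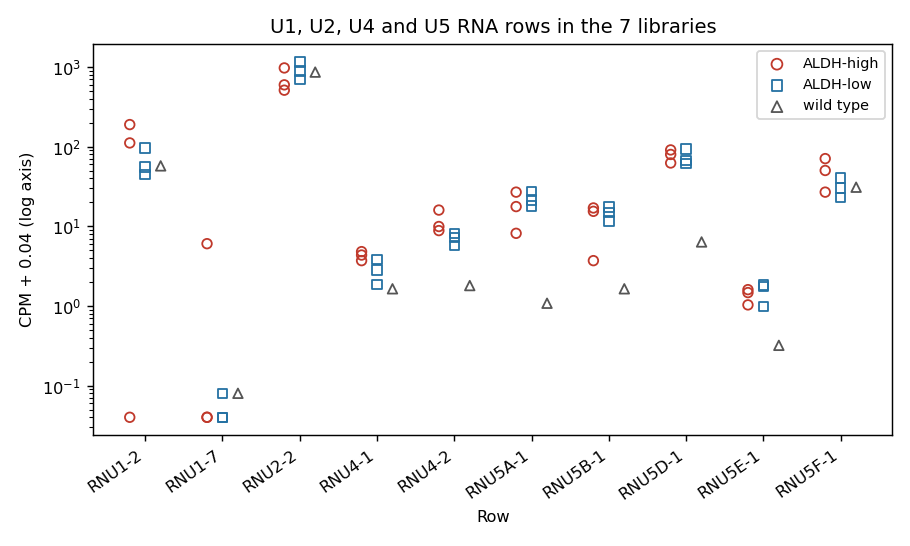
CPM plus 0.04 on a logarithmic y axis for 10 U1, U2, U4 and U5 rows on the x axis, with 1 symbol per library (circles ALDH-high clones, squares ALDH-low clones, triangles wild type). The wild type lies below all clones for both U4 rows and for every U5 row drawn except RNU5F-1, and RNU1-2 is at 0 in 1 ALDH-high clone.

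Over all members, the wild type was below every clone in 78 of 176 sets (44.3%) and above every clone in 22 (12.5%). Over all rows of the table these shares were 24.1% and 23.8%. By class, the wild type was below every clone in 41 of 89 SNORD sets, 25 of 48 SNORA sets, 11 of 22 RNU sets, 2 of 8 SCARNA sets and 0 of 8 RN7SL sets (3 sets hold both a SNORA and a SNORD row and count in each). RN7SL2, a gene of the signal recognition particle RNA, went the other way, at 52.32 to 116.75 CPM in the clones and 180.85 CPM in the wild type. With 1 wild-type library there was no test of these differences, and in RNA from whole cultures fewer cells with an RNA and less RNA per cell cannot be told apart.

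Setting the ALDH-high beside the ALDH-low clones addresses whether any of these rows differ with the ALDH activity used for sorting. No member passed the test. limma was fitted to log2(CPM + 1) of the 12705 rows that reached 1 CPM in 3 or more clones, and 161 of the 176 sets were among them. At a Benjamini-Hochberg adjusted p under 0.05, 0 of these 161 sets were called, against 170 of all tested rows (1.34%, made up of 0.645% higher and 0.693% lower in ALDH-high clones). At an unadjusted p under 0.05 there were 21 sets (16 higher and 5 lower in ALDH-high clones), or 13.0%, against 19.7% of all tested rows. The groups did not overlap in 19 sets that were higher and 4 that were lower in ALDH-high clones, 14.3% together, against 26.1% of all tested rows. The median difference over the 161 sets was -0.03 on the log2(CPM + 1) scale, that over all tested rows was 0.0036, and the members ranged from -1.66 to 0.93. The 15 untested sets all had means below 1 CPM.

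**Figure D5:**
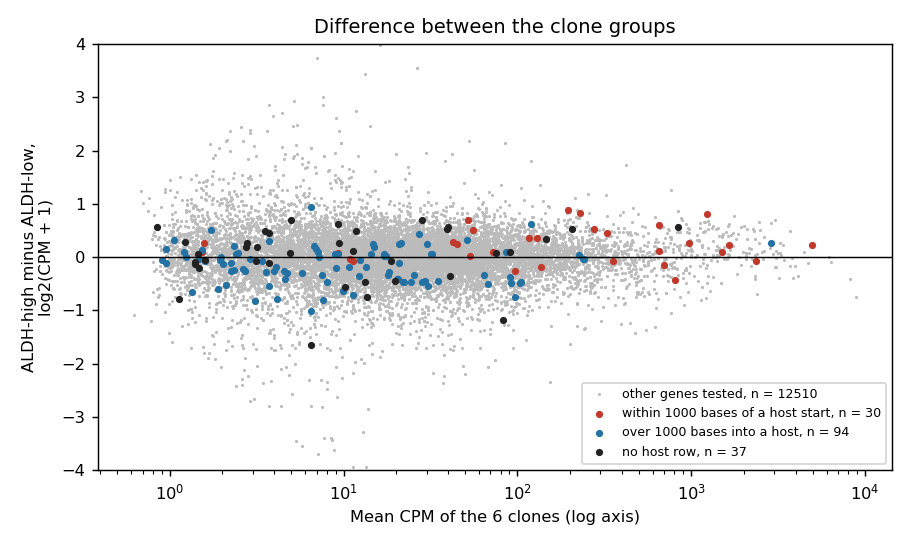
Mean CPM of the 6 clones on a logarithmic x axis against the ALDH-high minus ALDH-low difference in log2(CPM + 1) on the y axis, with other tested genes in grey and the 161 tested value sets coloured by their place in a host. None of the coloured points passed the test, they range from -1.66 to 0.93, and 10 other genes lie outside the axis limits of 4.

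The smallest adjusted p belonged to SNORD48, which lies 341 bases into C6orf48 on chromosome 6 and stayed at 98.6 to 99.8% of that host. SNORD48 was at 316.39, 224.30 and 222.32 CPM in the ALDH-high clones, 120.08, 154.66 and 134.68 CPM in the ALDH-low clones and 421.92 CPM in the wild type. All ALDH-high clones were above all ALDH-low clones. The log2 difference was 0.88 with a standard error of 0.18, and limma gave an adjusted p of 0.0646. SNORD15A, whose values are given above, had a difference of 0.82, a standard error of 0.22 and an adjusted p of 0.106.

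SNORD88C, in an intron of C19orf48, was at 169.24, 125.63 and 139.32 CPM in the ALDH-high clones, 84.60, 100.60 and 95.08 CPM in the ALDH-low clones and 77.33 CPM in the wild type. The groups did not overlap, and limma gave a difference of 0.62 and an adjusted p of 0.0991. SNORA52, in an intron of RPLP2, was at 7.79, 8.37 and 10.28 CPM, then 2.96, 4.36 and 5.32 CPM, and 1.44 CPM in the wild type, with a difference of 0.93 and an adjusted p of 0.1003. Its level was at most 0.638% of RPLP2. With library weights in limma, the adjusted p was 0.0264 for SNORD48, 0.0406 for SNORA52 and 0.05, just under the threshold before rounding, for SNORD88C, so that 3 sets were called in that fit.

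Of the rows with the lowest p on the other side, RNU4-8P (the row equal to ACTR1B) was at 9.85, 9.23 and 10.56 CPM in the ALDH-high clones and 17.04, 20.82 and 14.52 CPM in the ALDH-low clones, with a difference of -0.75 and an adjusted p of 0.1003 in limma. SNORA62 in RPSA had a difference of -0.71 (adjusted p 0.193 in limma), SNORA81 in an intron of SOD1 -0.81 (0.228) and SNORD33 -0.49 (0.241). In these 3 rows the wild type was below every clone. SNORA81 was at 2.58 CPM in ALDH-high clone 1 and 2.56 CPM in the wild type, and at 5.95 to 10.32 CPM in the other clones.

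The direction also varied with the place in the host. Of the 30 sets near a start, 22 were higher in ALDH-high clones, with a median difference of 0.23. Of 94 tested sets farther in, 61 were lower, with a median of -0.12. Without ALDH-high clone 1 the median of the far sets was 0.06, with 42 of 94 lower, and that of the near sets was 0.10, with 17 of 30 higher. The direction of the far sets thus changed without that clone. These medians were not computed with any other clone left out, so the weight of each clone cannot be compared. By class, 31 of 45 tested SNORA sets were lower in ALDH-high clones (median -0.11), and 43 of 83 SNORD sets were higher (median 0.03). The median over all tested rows was 0.0036. Class was not separated from place in the host, and class medians without ALDH-high clone 1 are not given. The SCARNA rows included SCARNA2 (1322.02, 807.34 and 890.72 CPM against 699.36, 710.70 and 596.24 CPM, adjusted p 0.195 in limma) and the set of SCARNA17 and SCARNA18 (209.06, 290.42 and 235.32 CPM against 149.60, 161.29 and 198.68 CPM, adjusted p 0.166 in limma). Neither overlapped between the groups.

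The SNORD3 rows, which name copies of U3 RNA, the snoRNA of early pre-ribosomal RNA cleavage, were singled out after their values were seen. SNORD3C was at 5.48, 0.25 and 0.40 CPM in the ALDH-high clones, 20.28, 12.53 and 0.24 CPM in the ALDH-low clones and 0.56 CPM in the wild type. SNORD3B-1 was at 1.43, 0.04 and 0 CPM, then 3, 2.28 and 0 CPM, and 0 CPM in the wild type. The same 3 clones, ALDH-high 1 and ALDH-low 1 and 3, were above 1 CPM in both rows. SNORD3A stayed between 0.67 and 1.88 CPM in all 7 libraries. SNORD3B-2 was at a mean of 0.71 CPM over the 7 libraries. SNORD3A and SNORD3C were identical at 216 of 218 aligned positions, and SNORD3B-1 and SNORD3C at 215 of 218. The copies therefore cannot be told apart with confidence, and their rows are not independent. RN7SK was at 4.05, 4.47 and 4.84 CPM in the ALDH-high clones, 3.04, 3.85 and 2.20 CPM in the ALDH-low clones and 4.48 CPM in the wild type (adjusted p 0.316 in limma). The 1 Y RNA row, the pseudogene RNY4P10, stayed between 0.31 and 0.80 CPM.

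Genes for proteins that make or bind these RNAs, noncoding snoRNA host genes and other small noncoding RNAs were followed in 15 lists. Of the 181 distinct genes tested in these lists, 1 (0.552%) passed the test, against 1.34% of all tested rows. CLNS1A, a chaperone that hands Sm proteins to the SMN complex for snRNA assembly, rose in the ALDH-high clones, with 287.6 ± 40.4 CPM against 155.6 ± 16.2 CPM in the ALDH-low group (SD, n = 3 each), a log2 difference of 0.88 and an adjusted p of 0.0427 in limma. The call was lost when any of the 6 clones was left out (adjusted p 0.0552 to 0.142 in limma). In that list of SMN complex, cap and export factors, 11 of 16 tested genes were higher in ALDH-high clones and 1 was called.

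No gene was called in the other 14 lists. Of the box C/D proteins and assembly factors 7 of 9 were higher in ALDH-high clones, with a median of 0.26, among them the core protein NOP56 (255.3 ± 23.9 against 161.6 ± 20.7 CPM, SD, n = 3, adjusted p 0.0801 in limma). Of the box H/ACA proteins 6 of 8 were higher, with a median of 0.32, among them NHP2 (516.5 ± 56.2 against 369.4 ± 2.32 CPM, adjusted p 0.124 in limma), while NOP10, another core protein, was at 177.7 ± 43.9 against 259.5 ± 42.2 CPM (adjusted p 0.198 in limma). RRP9, a U3-specific protein, was at 86.1 ± 6.73 against 45.4 ± 8.52 CPM (adjusted p 0.0519 in limma), in a list of U3 and rRNA modification partners in which 9 of 12 were higher. Of the noncoding snoRNA host genes 14 of 16 were higher, with a median of 0.48, and 9 (56.2%) had an unadjusted p under 0.05 in limma, against 19.7% of all tested rows. Several of these are the rows that members equal, so this count is not independent of the members.

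In the remaining lists the medians ranged from -0.10 to 0.26, against 0.0036 over all tested rows. Of Sm and LSm proteins 10 of 15 were higher (median 0.06), of spliceosomal snRNP proteins 13 of 21 (0.09) and of snRNA transcription factors 9 of 23 (-0.10). Of RNA polymerase III subunits and factors 15 of 21 were higher (0.17), of trimming and decay factors 10 of 17 (0.16), and of signal recognition particle proteins 5 of 8 (0.06). Of Cajal body proteins 3 of 4 were higher (0.16), of 7SK and P-TEFb proteins 4 of 6 (0.15), of Y RNA and polymerase III transcript binders 1 of 3 (-0.06), and of other small noncoding RNAs (TERC, RMRP and RPPH1) 3 of 3 (0.26). The lowest p in the transcription list was that of INTS4, an Integrator subunit (53.9 ± 4.97 against 27.9 ± 7.80 CPM, SD, n = 3, adjusted p 0.0750 in limma). The next lowest was that of INTS1, which was lower in the ALDH-high clones (32.85 ± 6.80 against 50.39 ± 8.88 CPM, adjusted p 0.175 in limma). The exosome subunit EXOSC7 (35.6 ± 2.64 against 21.3 ± 1.32 CPM) had an adjusted p of 0.0664 in limma.

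Further genes with the lowest p of their lists pointed in both directions, and none of them passed the test (limma adjusted p in parentheses). GEMIN4, an SMN complex subunit, was at 68.5 ± 3.52 CPM in ALDH-high and 44.4 ± 4.54 CPM in ALDH-low clones (0.0812). POLR3K, an RNA polymerase III subunit, was at 126.4 ± 12.4 against 84.6 ± 7.38 CPM (0.0942), and the exosome subunit EXOSC9 at 43.1 ± 2.78 against 25.4 ± 5.42 CPM (0.0963). The signal recognition particle protein SRP14, which binds RN7SL RNA, was lower in the ALDH-high clones, at 180.4 ± 4.95 against 277.4 ± 48.2 CPM (0.106). IMP3 of the U3 list was also lower, at 18.7 ± 2.32 against 28.4 ± 7.88 CPM (0.222). So were LSM5 of the Sm and LSm list, at 50.2 ± 12.6 against 68.6 ± 2.37 CPM (0.222), and SSB of the Y RNA list, at 185.5 ± 9.31 against 257.9 ± 63.6 CPM (0.270). The snoRNA host SNHG6 was at 559.0 ± 91.1 against 355.2 ± 59.2 CPM (0.114) and at 839.45 CPM in the wild type. MEPCE, which caps 7SK RNA, was at 159.6 ± 37.0 against 108.0 ± 25.2 CPM (0.224), and PRPF8, the U5 protein at the spliceosome's core, at 267.8 ± 32.3 against 192.0 ± 28.5 CPM (0.170). SNRPF, an Sm ring protein, was at 967.2 ± 114.8 against 697.2 ± 109.5 CPM (0.188), and WRAP53, which brings SCARNAs to Cajal bodies, at 33.0 ± 2.02 against 24.5 ± 3.31 CPM (0.205). All are means with SD over 3 clones.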

How the data were processed

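The deposited table holds 1 CPM value per gene and library, and 7 libraries (3 ALDH-high clones, 3 ALDH-low clones, 1 wild type). The authors' values are rounded to 2 decimals, and the columns sum to 967084.9 to 1019855.1 CPM. Per the submitters' processing notes, the tool was BWA 0.5.9 and the builds named are mm9 and hg19, without their roles. Whole reads could not be recovered within tolerance for 2 of the columns, so no count model was used and depth is taken as unknown. Members and lists were chosen with earlier results of these data known.

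Rows were matched to GENCODE release 29 by identifier (161) or symbol (37), and 16 were unmatched. Coordinates are not printed, because that annotation uses another build. The host was the shortest same-strand gene containing a member. ALDH-high and ALDH-low clones were compared by a limma fit (version 3.58.1, R 4.3.3, eBayes with trend, two-sided) to log2(CPM + 1), for rows reaching 1 CPM in 3 or more clones, adjusted by Benjamini-Hochberg over all tested rows. The fit was also run on simulated data with independent noise in each row. Those data lacked the repeated rows and shared hosts of the real data, so they do not show how the fit behaves with them. Other steps used Python 3.11.15 and pandas 2.3.3. The text names the 12 highest sets, the highest of each class, the 4 lowest p values in each direction, the 4 largest gaps of 1 library, up to 8 sets equal to an outside row, and, of each list, the 3 genes with the lowest p, some of them by counts only. The alternatives tried were 1 row per value set, library weights, eBayes without trend, quantile normalization, median-ratio scaling, a 5 CPM filter or none, pseudocounts of 0.1 and 5, and leaving out each clone. Some items are not reported here.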

Additional observations from a re-analysis of the deposited data

How the results depend on the processing

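No member was called in any fit except that with library weights, which called 3. Over all tested rows, 170 were called in the fit reported, 86 with a 5 CPM filter, 700 with library weights and 34 to 173 when 1 clone was left out (34 without ALDH-high clone 10, 37 without ALDH-low clone 8, 44 without ALDH-low clone 1, 57 without ALDH-high clone 6). Of the pathway genes, 1 was called in the fit reported, 0 with a 5 CPM filter, 0 with eBayes without trend, 2 with median-ratio scaling and 2 with quantile normalization (CLNS1A and RRP9), 11 with library weights and 0 to 0 with 1 clone left out.

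The 29 named and tested members gave 434 values under the alternatives, of which 417 kept direction and side of the threshold, 3 passed it and 14 changed direction, with none of these 14 called. With library weights the log2 difference was 0.3795 for RNU1-2, -0.0452 for SNORD43 and -0.0059 for SNORD59A, and with quantile normalization it was -0.0861 for SNORD43. Leaving out 1 clone each time gave the other changes of direction, which came without ALDH-high clone 1 for RNU1-2, SNORD43 and SNORD59A, without ALDH-high clone 6 for RN7SL2, SNORD101 and SNORD1C, without ALDH-high clone 10 for RNU5D-1, without ALDH-low clone 3 for SNORD95, and without ALDH-low clone 8 for RN7SL2 and RNU5D-1. The differences then ranged from -2.5723 to 1.2117 for RNU1-2, -0.0654 to 0.2317 for SNORD43, -0.0696 to 0.2733 for SNORD59A, -0.2357 to 0.3357 for RN7SL2, -0.3125 to 0.1509 for SNORD101, -0.5042 to 0.0562 for SNORD1C, -0.0429 to 0.2648 for RNU5D-1 and -0.1126 to 0.4873 for SNORD95.

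Alternatives added after the data were seen concerned the distance limit and ALDH-high clone 1. With a limit of 500 bases, 13 of 15 sets stayed within 5% of the host, and with 1300 bases 30 of 40. In the clones alone 26 of 30 did. The wild type was below all clones in 78 sets (44.3%), and in 95 (54.0%) when ALDH-high clone 1 was left out, while over all rows of the table the share went from 24.1% to 29.9%. No paired analysis was possible because the labels pair no ALDH-high clone with an ALDH-low clone.

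With 3 clones a group, from 1 line, an exact permutation test could not give p below 0.1, so single rows were judged by limma alone. Depth is unknown, so values near 0.04 CPM carry no interval.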
